A study of Homo sapiens and Mus musculus with 12 samples.

Results

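The TAM family comprises the receptor tyrosine kinases TYRO3, AXL and MERTK and their soluble ligands GAS6 and PROS1 (protein S). Its genes were taken by symbol from RNA-seq counts of NK cells. The mouse table lists Axl, Mertk, Tyro3, Gas6 and Pros1, that is 5 of 22021 genes. The human table gave 1 member, MERTK, of 18304 genes, and AXL, TYRO3, GAS6 and PROS1 were not analysed here. The family was chosen from differences between KO and WT and between BIX-01294 and DMSO that were already known from these counts. The values of its members in both comparisons are therefore a description. No p-value is given for a member, and counts of members past a threshold are no evidence of a difference.

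Mouse NK cells, defined as CD3-negative and NK1.1-positive, were sorted from the spleen of young adult C57BL/6J mice. WT mice carried Ehmt2 flox/flox, in which both copies of the gene can be deleted by Cre, and KO mice carried Ehmt2 flox/flox together with Ncr1-iCre, so that Cre is made where Ncr1, which encodes the activating receptor NKp46, is expressed. Each genotype had 3 libraries. The human libraries were made from NK92MI, an NK cell line that produces its own IL-2, treated with BIX-01294, an inhibitor of EHMT2, or with the solvent DMSO, again with 3 libraries per group. EHMT2 (G9a) writes the repressive histone mark H3K9me2, and the comparisons ask how RNA changes when it is deleted or inhibited. The labels do not say whether replicates were separate animals or cultures, so errors measure only the spread between libraries. A genotype label of the KO samples reads Ezh2-KO, whereas the titles name EHMT2, and the titles were followed here.

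TAM receptors recognise dead cells and membrane debris through their ligands. GAS6 and PROS1 carry a vitamin K-dependent domain that binds phosphatidylserine on the outer side of a membrane, and a second region that binds the receptor. MERTK and AXL are well known from macrophages and dendritic cells, where they drive the engulfment of apoptotic cells and dampen cytokine and interferon responses. TAM receptors have also been described on NK cells as inhibitory receptors acting with the ubiquitin ligase CBL-B.

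Library totals lay between 25891680 and 37438868 counts in mouse and between 16579469 and 17165446 in human. Expression is given as CPM, the share of a library's counts scaled to a common library size after TMM normalization. The fit was edgeR's quasi-likelihood test over 13189 mouse and 12727 human genes that passed its filter on low counts, and a gene was called when its Benjamini-Hochberg adjusted p was under 0.05. In KO libraries, Ehmt2 differed by −0.91 on the log2 scale (standard error, SE, 0.10), and counts of 4994 to 6277 remained against 7332 to 10628 in WT. The counts do not show from which part of the gene or from which cells the remaining reads came. Mouse libraries of the same group differed in marker levels. KO replicate 1 had summed B cell, neutrophil and T cell marker levels of 393, 251 and 219 CPM. The other KO libraries had at most 39.6, 58.8 and 100 CPM. Among WT libraries, replicate 3 had the highest B cell and neutrophil sums, at 1313 and 1638 CPM. WT replicate 2 had the smallest total and, among WT libraries, the lowest level of macrophage markers and the highest level of NK cell markers, so the members' fold changes and the counts of calls are also given without it. Because it was set apart on these markers, larger differences without it are not read as support.

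The 3 mouse receptors are paralogs. Their kinase-coding sequence is the part most alike, and it is shown here because reads from closely similar genes can be counted for the wrong one. The lines give the 60 bases of coding sequence most alike in the 3 receptors, in which 41 bases were the same in all 3, and capitals mark the positions at which the 3 differed. The stretch holds the codons of the Asp-Phe-Gly motif of the kinase domain in each gene. Sequences are from the GRCm38 transcripts of GENCODE M21, 5′ to 3′ in the sense of the gene.
Axl, exon 18, chr7:25761494-25761553, minus strand: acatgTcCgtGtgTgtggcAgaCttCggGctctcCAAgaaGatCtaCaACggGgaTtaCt
Mertk, exon 17, chr2:128792957-128793016, plus strand: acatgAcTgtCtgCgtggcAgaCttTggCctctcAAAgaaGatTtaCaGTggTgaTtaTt
Tyro3, exon 17, chr2:119812814-119812873, plus strand: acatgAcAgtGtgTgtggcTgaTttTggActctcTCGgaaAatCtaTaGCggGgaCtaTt
The longest run of identical bases between any pair of the receptors' transcripts was 14. None of the 5 mouse members shared a stretch of 50 bases with a transcript of another gene, so sharing of reads of that length between members was not seen in this annotation. Human MERTK (GRCh38, GENCODE 44) had 54 of the same 60 bases as mouse Mertk, with the other 6 in capitals.
MERTK, exon 17, chr2:112021433-112021492, plus strand: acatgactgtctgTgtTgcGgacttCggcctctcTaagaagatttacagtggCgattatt

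Transcripts of Axl, Mertk and Pros1 were lower in every KO library than in any WT library. Gas6 had a lower mean in KO with overlapping groups, and Tyro3 was about level. Of the 5 members, 3 were called lower and 0 higher. Over all genes tested, 7.43% were called lower and 4.44% higher, and since the members were chosen on this comparison nothing is read from the count. The groups did not overlap for 3 of 5 members, all lower in KO. The same held for 19.3% of all genes in the lower direction and for 19.1% in the higher direction. No member was called higher, or reached an unadjusted p under 0.05 in that direction, by edgeR, DESeq2 or limma-voom.

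Axl, the receptor that prefers GAS6, is located at chr7:25757273-25788705 (GRCm38, minus strand). Its level was 764, 188 and 435 CPM in WT replicates 1, 2 and 3 and 156, 87.2 and 140 CPM in KO replicates 1, 2 and 3. All KO libraries lay below all WT libraries, and WT replicate 2 was only 1.21-fold above the highest KO library. The mean was 462 ± 289 CPM (SD, n = 3) in WT and 128 ± 35.9 CPM (SD, n = 3) in KO. The log2 fold change was −1.86 (SE 0.47). Without WT replicate 2 it was −2.23, and without WT replicate 1, the library with most Axl, it was −1.29.

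Mertk, the receptor of apoptotic cell engulfment by macrophages, is located at chr2:128698956-128802894 (plus strand). WT replicates held 111, 24.98 and 71.0 CPM and KO replicates 19.0, 9.48 and 17.9 CPM. The order of the libraries was the same as for Axl in each group. The mean fell from 68.9 ± 42.9 CPM in WT to 15.4 ± 5.19 CPM in KO (SD, n = 3), and the log2 fold change was −2.16 (SE 0.51). It ranged from −2.55 without WT replicate 2 to −1.64 without WT replicate 1. The ratio of Axl to Mertk CPM was 6.90, 7.51 and 6.13 in WT and 8.21, 9.20 and 7.85 in KO. This ratio varied 1.22-fold among WT libraries, while Axl itself varied 4.07-fold and Mertk 4.43-fold.

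Tyro3, the third receptor, is located at chr2:119797733-119818104 (plus strand) and was scarce in all libraries. Its level was 5.83, 6.63 and 5.43 CPM in WT and 5.93, 7.70 and 7.13 CPM in KO, from 171 to 286 counts per library. The groups overlapped, and the log2 fold change was 0.22 (SE 0.17), between 0.14 and 0.31 with each library left out, and 0.30 without WT replicate 2. Among WT libraries Tyro3 varied only 1.22-fold. WT replicate 2, which was lowest among WT for the other 2 receptors, was the highest WT library for Tyro3.

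Gas6, which binds all 3 receptors, is located at chr8:13465374-13494490 (minus strand). It held 5.91, 2.33 and 4.30 CPM in WT and 2.28, 1.43 and 2.96 CPM in KO. WT replicate 2 lay inside the KO range, the only WT library to do so, and the log2 fold change of −0.92 (SE 0.39) was not called. Without WT replicate 2 it was called, at −1.19. Gas6 has 34 exonic bases (1.33% of its exons) in common with Tmem255b on the opposite strand. The strand setting of the counting is not given in the sources used here, so reads from these bases cannot be assigned.

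Pros1, a TAM ligand and the anticoagulant cofactor of protein C, is located at chr16:62854307-62929346 (plus strand). Its level was 22.6, 17.4 and 28.2 CPM in WT and 13.3, 12.6 and 13.1 CPM in KO. KO libraries were within 1.06-fold of each other and all lay below the WT libraries. The log2 fold change was −0.81 (SE 0.17), a 1.75-fold lower level, and −0.96 without WT replicate 2. The library with most Pros1 was WT replicate 3, whereas WT replicate 1 was highest for Axl, Mertk and Gas6. WT replicate 3 also held the highest B cell, neutrophil and platelet marker sums, and their part in the level of Pros1 was not tested.

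**Figure D1:**
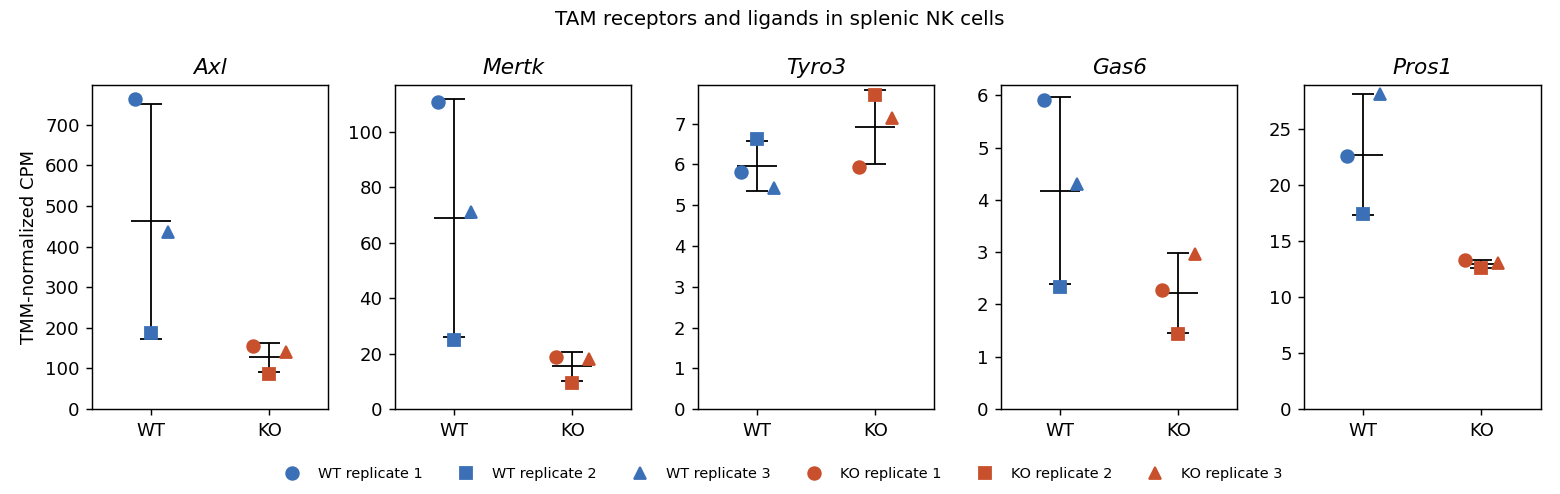
TMM-normalized CPM of Axl, Mertk, Tyro3, Gas6 and Pros1 in WT (blue) and KO (orange) libraries. Each symbol is 1 library and the bars give mean and SD (n = 3). WT replicate 2 (square) is the lowest WT library for Axl, Mertk, Gas6 and Pros1, and the groups overlap for Tyro3 and Gas6.

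The calls depended on single libraries. Without WT replicate 1, WT replicate 3, KO replicate 2 or KO replicate 3, edgeR called 0 of the 5 members, although 3, 3, 3 and 4 of them had an unadjusted p under 0.05. Over all genes the same fits called 64, 8, 0 and 0 lower and 35, 6, 0 and 0 higher. The share of all genes under that unadjusted p is not given for these fits, so nothing is read from the members under it. Without KO replicate 1 edgeR called Mertk and Pros1. Without WT replicate 2 it called 4 members, Gas6 being added to Axl, Mertk and Pros1. With all libraries, DESeq2 called 3 members and limma-voom only Pros1. At the study's thresholds, an adjusted p under 0.01 and an absolute log2 fold change over 0.5, edgeR called 0 of 5 and DESeq2 called Axl, Mertk and Pros1. The study itself used DESeq2. Over all genes edgeR called 0 at these thresholds, and DESeq2 called 1099 lower and 396 higher.

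Levels were compared between genes per length, as CPM per kb of merged exons. In WT, Axl stood at 91.8 ± 57.4, Mertk at 15.9 ± 9.89, Pros1 at 5.55 ± 1.31, Gas6 at 1.64 ± 0.704 and Tyro3 at 0.962 ± 0.0991 CPM per kb (SD, n = 3). In KO the levels were 25.4 ± 7.13 for Axl, 3.56 ± 1.20 for Mertk, 3.18 ± 0.0856 for Pros1, 1.12 ± 0.146 for Tyro3 and 0.873 ± 0.302 CPM per kb for Gas6. Axl was the most abundant member in every library, 5.78-fold above Mertk in WT and 7.12-fold above it in KO by means. Its lowest library lay above the highest of Mertk in each group. The neighbours Mertk and Pros1 overlapped in both groups, and so did Gas6 and Tyro3. Pros1 separated from the member below it in both groups. The order in KO had Tyro3 before Gas6 and the order in WT the reverse, but neither order held in all 3 libraries of its group.

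**Figure D2:**
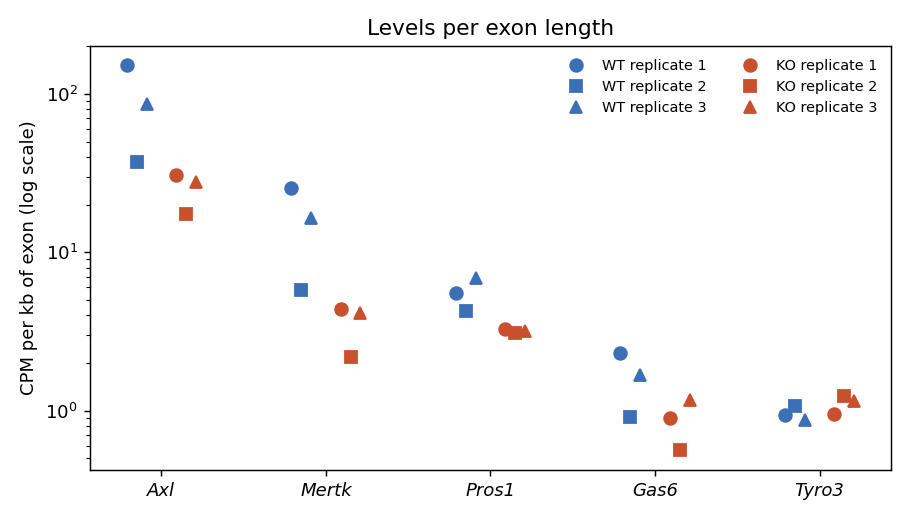
Level per exon length (CPM per kb, log scale) of the 5 mouse members; each symbol is 1 library, WT in blue and KO in orange. Axl lies above all other members in both groups, whereas Mertk overlaps Pros1 and Gas6 overlaps Tyro3 within each group.

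Because Axl and Mertk are known from macrophages, markers of the cell types that a splenic NK cell sort could hold were set beside them. All 18 genes of the macrophage list were detected and lower in KO, 11 of them called against 7.43% of all genes, at a median of −1.83 on the log2 scale where the median over all genes was 0.01. Their summed level was 10503, 3338 and 7013 CPM in WT and 3103, 1656 and 2388 CPM in KO. WT replicate 1 thus held 3.15-fold more macrophage marker RNA than WT replicate 2. The 3 most abundant of the list were Lyz2 (lysozyme), at −0.69 (adjusted p = 0.096 by edgeR), Hmox1 (haem oxygenase), at −2.54 (adjusted p = 0.0402), and Csf1r, the receptor for macrophage growth factor, at −1.21 (adjusted p = 0.0455). Without WT replicate 2 all 18 were called, but that library was set apart by its low level of these markers, so nothing is read from that count. Without WT replicate 1, WT replicate 3, KO replicate 2 or KO replicate 3 edgeR called 0 of 18. Those fits called 64, 8, 0 and 0 of all genes lower. With all libraries, 18 had an unadjusted p under 0.05, as had 2639 of all 13189 genes in the lower direction. DESeq2 called 18 and limma-voom 5, against 1989 and 892 of all genes lower.

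Summed levels of other marker lists were also set side by side. The sum of the B cell list was 426 to 1313 CPM in WT and 32.8 to 393 CPM in KO, and that of the neutrophil list 224 to 1638 CPM against 57.3 to 251 CPM. The B cell sums did not overlap between groups and the neutrophil sums did. WT replicate 3 held the highest WT value of both lists, and KO replicate 1 the highest KO value of both. The megakaryocyte and platelet list summed to 1640 to 2615 CPM in WT and 1307 to 1445 CPM in KO, and the endothelium and stroma list to 27.9 to 41.6 CPM against 14.01 to 19.3 CPM. Neither of these sums overlapped between groups, and WT replicate 3 held the highest megakaryocyte and platelet sum. The sums of the dendritic cell list (922 to 1255 CPM in WT, 1033 to 1295 CPM in KO) and of the T cell list (155 to 260 CPM in WT, 97.5 to 219 CPM in KO) did overlap between groups. Most of the dendritic cell sum was Itgax, named after its value was seen. It held 637 to 1034 CPM in WT and 830 to 1169 CPM in KO, with a log2 fold change of 0.41, so the overlap of the sums mainly describes that gene. Of the 8 dendritic cell genes, however, 7 had a lower mean in KO, and the median log2 fold change of the 8 was −0.79. Of the 7, 5 were lower without overlap and 1 was called, against 19.3% and 7.43% of all genes. Their part in the differences of Axl and Mertk was not tested. None of these lists had a gene without counts in all 6 libraries. The pan-NK list, which checks the labelled cell type, was present in all libraries at 6019 to 10114 CPM in WT and 11445 to 13244 CPM in KO. All 14 of its genes had a higher mean in KO, 7 of them called, against 4.44% of all genes. An unadjusted p under 0.05 was reached by 13, against 2080 of all 13189 genes in the higher direction. Without WT replicate 2 all 14 were called, but that library was set apart partly by its high level of these markers, so nothing is read from that count. Without WT replicate 1, WT replicate 3, KO replicate 2 or KO replicate 3 edgeR called 0. Bulk libraries do not separate fewer cells of a type from less RNA per cell.

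Per 1000 CPM of the macrophage list, Axl stood at 72.7, 56.2 and 62.1 CPM in WT and 50.1, 52.7 and 58.8 CPM in KO, and the groups overlapped. The log2 ratio of the group means was −0.24 on this scale. Mertk per 1000 CPM of the list was 10.5, 7.48 and 10.1 in WT and 6.11, 5.73 and 7.50 in KO, overlapping by 1 library, with a log2 ratio of means of −0.54. Pros1 on the same scale was 2.15, 5.22 and 4.01 in WT and 4.29, 7.61 and 5.47 in KO, also overlapping. Gas6 was higher in every KO library on this scale, at 0.563, 0.697 and 0.613 in WT and 0.736, 0.862 and 1.24 in KO. The part of macrophage RNA in the differences of the members was not tested.

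Tyro3 was not higher in libraries with more macrophage marker RNA. Per 1000 CPM of the pan-NK list it was 0.968, 0.656 and 0.859 in WT and 0.518, 0.582 and 0.548 in KO, lower in every KO library. The pan-NK sum itself was higher in KO, with a log2 ratio of means of 0.75. Its list holds Gzmb, Il2rb, Tbx21 and Prf1, whose RNA the paper reports as raised in KO NK cells. The reference thus differs between genotypes, and a lower value on this scale is not read as a fall of Tyro3. When libraries were scaled to the pan-NK list instead of by TMM, the log2 fold change of Tyro3 changed sign to −0.59, while the median over all genes was −0.81 on that scale. Relative to that median, Tyro3 again lay above it, and Axl at −2.79, Mertk at −3.10, Gas6 at −1.82 and Pros1 at −1.67 lay below it.

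**Figure D3:**
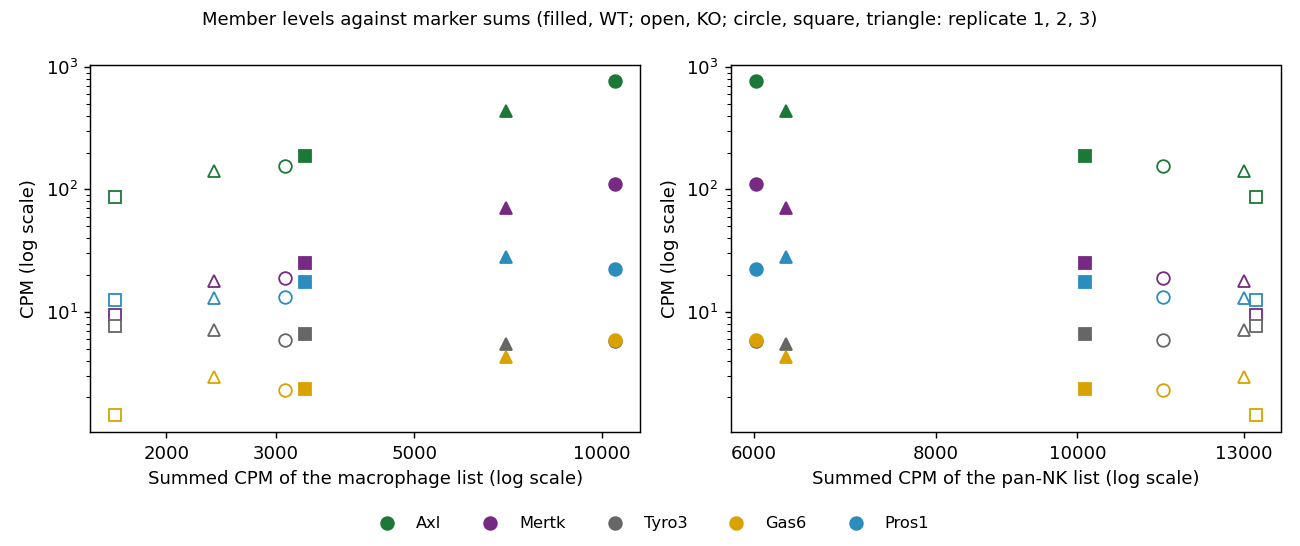
CPM of each member (y axis, log scale) against the summed CPM of the macrophage list (left) and of the pan-NK list (right) in the same library (x axes, log scale); filled symbols are WT, open symbols KO, and the shape gives the replicate number. Axl and Mertk are higher in libraries with more macrophage marker RNA, WT replicate 2 included, whereas Tyro3 stays between 5.43 and 7.70 CPM.

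The members differed in which other members they followed over the 6 mouse libraries. Pearson's r of log2 CPM was 0.997 for Axl with Mertk, 0.95 for Axl with Gas6, 0.954 for Mertk with Gas6, 0.878 for Axl with Pros1 and 0.904 for Mertk with Pros1. Tyro3 gave between −0.818 and −0.744 with the other 4. The points share genotype and library composition, so these are descriptions. The tested genes most like Axl included Acp2 (lysosomal acid phosphatase), Nr1h3 (the nuclear receptor LXR alpha), Plpp3 and Gfra2. Mertk was followed most closely by Epb41l3, Vcam1, Paqr9, Itga9 and Trim47. For Axl and Mertk the lowest r of these genes was 0.998, and their log2 fold changes lay between −2.30 and −1.16. The genes most like Pros1 included Wfdc21, Adam9 and Tmpo, and those most like Gas6 were Fjx1, Fez2, Brox, Serpinc1 and Dchs1. Tyro3 was most like Raver1, Dtnb, Csnk1d, Yars and Chst14, whose log2 fold changes were all between 0.06 and 0.32.

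Outside the 5 members, 75 mouse genes of the same pathway were listed by role, and 70 could be tested. Of these, 7 were called lower, against 7.43% of all genes, and 3 higher, against 4.44%. The median log2 fold change was −0.04, where all genes had 0.01. Most of the calls in the lower direction came from other phosphatidylserine receptors and bridging proteins, of which 5 of 15 were called lower and 14 of 15 had a lower mean in KO, with a median of −0.75. All 18 macrophage markers were lower in the same libraries, with a median of −1.83, and their part in the fall of this list was not tested. The exception was Itgav, named after its value was seen, at 0.33. Integrin Itgb5 fell by 0.75 (SE 0.12, adjusted p = 0.0275 by edgeR), and Lrp1, an engulfment receptor, fell by 1.13 (SE 0.22, adjusted p = 0.0327 by edgeR). Havcr2 (TIM-3), a checkpoint receptor that binds phosphatidylserine, fell by 0.70 (SE 0.15, adjusted p = 0.0368 by edgeR), from 53.0, 45.2 and 58.7 CPM in WT to 38.4, 28.2 and 30.3 CPM in KO. Cd300a, an inhibitory receptor for phosphatidylserine, fell by 1.07 (SE 0.25, adjusted p = 0.0429 by edgeR).

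The bridging protein Mfge8, which links phosphatidylserine to integrins as GAS6 and PROS1 link it to TAM receptors, was named after its value was seen. It had a log2 fold change of −0.04. Of the other ligands and the enzymes of vitamin K-dependent carboxylation, 0 of 4 were called by edgeR and 1 had an unadjusted p under 0.05. This was Lgals3 (galectin-3) at −1.19 (adjusted p = 0.0508 by edgeR), which DESeq2 called. In the lower direction 2639 of all 13189 genes reached that unadjusted p. Of the engulfment machinery 1 of 13 was called, against 7.43% of all genes called lower. It was Ptk2 (focal adhesion kinase), which fell by 1.11 (SE 0.23, adjusted p = 0.035 by edgeR). The part of macrophage RNA in the values of Lgals3 and Ptk2 was not tested.

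Among signalling partners and targets of the TAM receptors, 2 of 21 were called and both were higher in KO. Over all genes 4.44% were called higher and 7.43% lower, so nothing is read from this count. Socs1, a feedback inhibitor of cytokine signalling, rose by 0.95 (SE 0.15, adjusted p = 0.0269 by edgeR). Cblb, which encodes the ubiquitin ligase CBL-B, rose by 0.55 (SE 0.13, adjusted p = 0.0454 by edgeR). On the scale set by the pan-NK list Cblb was at −0.25, where the median over all genes was −0.81. Of the genes for receptor shedding and phosphatidylserine exposure, edgeR called 0 of 8 and 3 had an unadjusted p under 0.05. Of all 13189 genes tested, 2080 were higher and 2639 lower at that p, so nothing is read from the 3. DESeq2 called 2 of the 8 and limma-voom 0. The largest absolute log2 fold change in that list was that of Xkr8, a scramblase, at 0.47 (adjusted p = 0.0632 by edgeR).

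The liver X receptors induce Mertk in macrophages, and their list with retinoid X and PPAR receptors held 9 tested genes. Nr1h3, one of the genes most like Axl, was called lower, from 156, 40.2 and 86.7 CPM in WT to 33.5, 20.4 and 30.2 CPM in KO, a change of −1.75 in log2 CPM (SE 0.44, adjusted p = 0.0472 by edgeR). All 18 macrophage markers were lower in the same libraries, with a median of −1.83. Their part in the fall of Nr1h3 was not tested, nor was any link between Nr1h3 and Mertk. Mylip, an LXR target that degrades the LDL receptor, rose by 0.57 (SE 0.13, adjusted p = 0.0405 by edgeR). It stood at −0.21 on the pan-NK scale, where the median over all genes was −0.81. Of the 9 genes, 5 had a lower mean in KO, and the median of the list was −0.05.

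Without WT replicate 2, 21 pathway genes were called lower and 9 higher, and without KO replicate 1, 8 and 9. Without WT replicate 1, WT replicate 3, KO replicate 2 or KO replicate 3, edgeR called 0 of them in either direction. The calls over all genes moved in the same way, to 2097 lower and 1433 higher without WT replicate 2 and to at most 64 lower and 35 higher without any of the latter 4 libraries. With all libraries, 23 of 70 tested pathway genes had an unadjusted p under 0.05 in the lower direction, against 2639 of all 13189 genes. DESeq2 called 19 lower and 9 higher, against 1989 and 1098 of all genes.

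**Figure D4:**
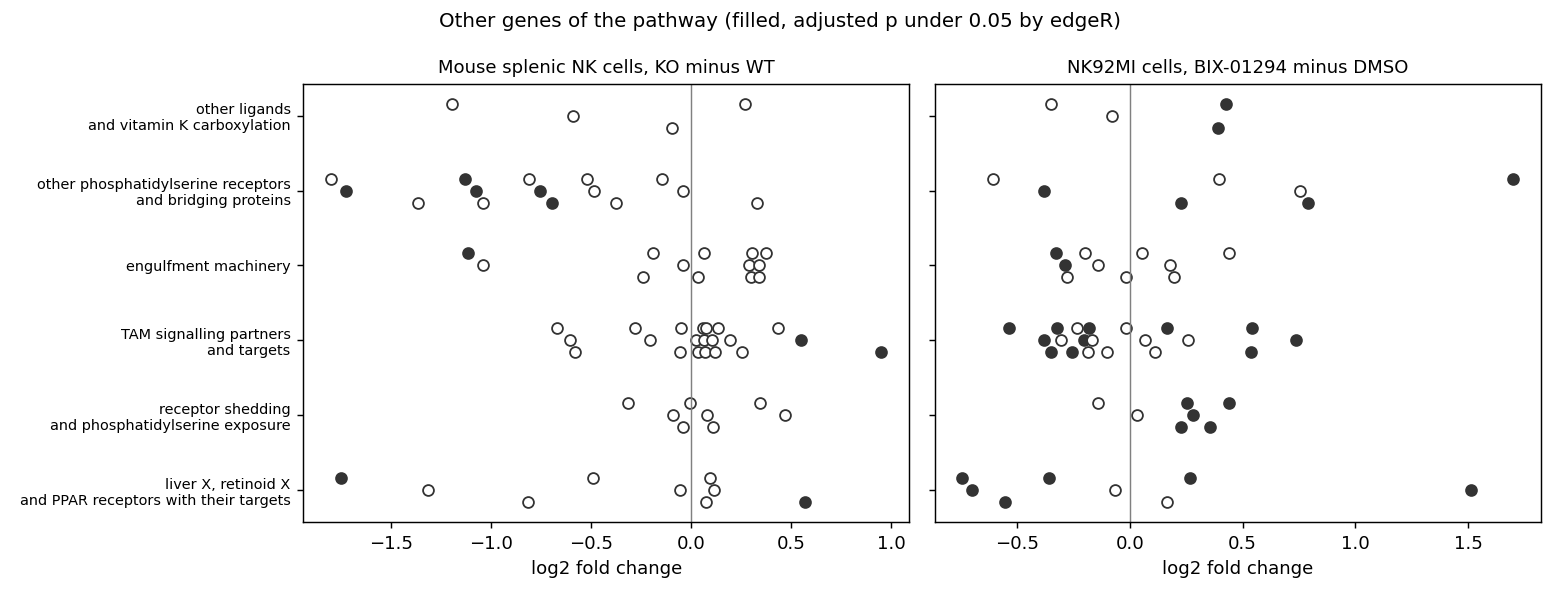
Log2 fold changes (x axis) of the other pathway genes by role (y axis) in mouse NK cells (KO minus WT, left) and NK92MI cells (BIX-01294 minus DMSO, right); each point is 1 tested gene, filled where its adjusted p was under 0.05. In mouse, phosphatidylserine receptors lie mostly to the left of 0, and in NK92MI cells calls lie on both sides.

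In NK92MI cells, MERTK was close to the detection limit. It is located at chr2:111898607-112029561 (GRCh38, plus strand). The DMSO libraries held 22, 15 and 14 MERTK reads and BIX-01294 replicates 1, 2 and 3 held 4, 12 and 3. In CPM the values were 1.28, 0.877 and 0.828 with DMSO and 0.244, 0.705 and 0.177 with BIX-01294, where 1 read is worth 0.0582 to 0.0609 CPM. All BIX-01294 libraries lay below all DMSO libraries, replicate 2 by 2 reads. BIX-01294 replicate 3 was at 3 reads, the number taken as the floor of detection.

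The DMSO libraries held 51 reads together (95% exact Poisson interval 38.0 to 67.1) and the BIX-01294 libraries 19 (11.4 to 29.7). These intervals cover counting error only. The log2 fold change was −1.38 (SE 0.49) and MERTK, 1 of 1 member, was called lower. Over all human genes 18.4% were called lower and 18.4% higher, and 23.9% did not overlap in the lower direction and 24.1% in the higher, so nothing is read from the call. Of the BIX-01294 libraries, only replicate 2 was above the minimum count of 10 used by the filter on low counts, whereas all DMSO libraries were, so no weight is given to MERTK having passed it. The call was lost with DESeq2, without the filter, and with any DMSO library or BIX-01294 replicate 1 or 3 left out. Without BIX-01294 replicate 2 it held, at −2.20, and without replicate 3 the value was −1.04.

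**Figure D5:**
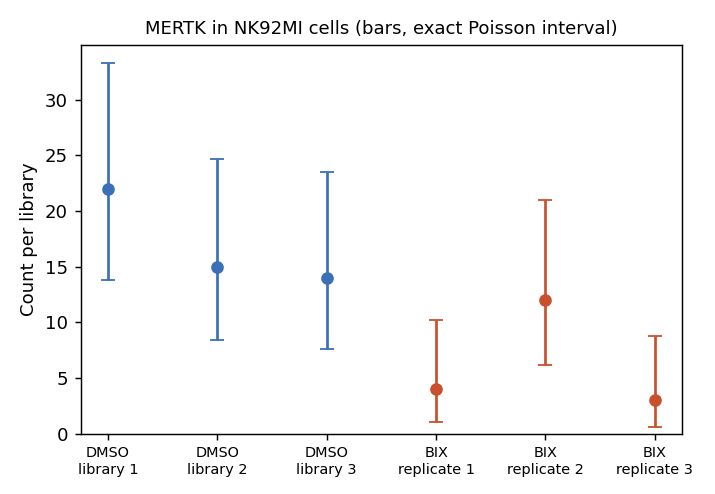
MERTK counts per library in NK92MI cells (y axis); points are single libraries, DMSO in blue and BIX-01294 in orange, and bars are 95% exact Poisson intervals, which cover counting error only. The interval of BIX-01294 replicate 2, at 12 reads, overlaps those of all 3 DMSO libraries.

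EHMT2, the target of BIX-01294, fell by 0.58 on the log2 scale (SE 0.08, adjusted p = 0.000101 by edgeR) in the same libraries. Of the macrophage list, 2 of 18 genes could be tested, CSF1R and VCAM1 (named after their values were seen). They stood at 2.05 to 3.26 and 1.34 to 1.89 CPM with DMSO and at 3.66 to 4.57 and 4.41 to 5.54 CPM with BIX-01294. Both were called higher. Their mouse counterparts were lower in the KO libraries, as were all 18 genes of the mouse macrophage list. The part of macrophage RNA in that fall was not tested. The genes most like MERTK over the 6 libraries were ENSG00000286065, ESR1, KDM3B, RAB3A and POM121, where the lowest r was 0.989, at these low counts.

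Of 75 human pathway genes, 63 were listed and 56 tested, with 16 called higher and 14 lower, against 18.4% of all genes in each direction. Genes for receptor shedding and phosphatidylserine exposure were called in the higher direction in 5 of 7 cases, and their median change was 0.25. They included ADAM17 at 0.36 (adjusted p = 0.00218) and ADAM10 at 0.23 (adjusted p = 0.0128 by edgeR), the proteases that shed AXL and MERTK from the cell surface. The flippase subunit TMEM30A rose by 0.44 on the log2 scale and the scramblase ANO6 by 0.28. Of the TAM signalling list 4 of 20 were called higher and 7 lower. IFNAR1, the interferon receptor chain that partners AXL, rose by 0.74 (SE 0.07, adjusted p = 2.04e-06 by edgeR), and the adaptor NCK2 rose by 0.54. The phospholipases PLCG2 and PLCG1 fell by 0.53 and 0.38, PTPN11 by 0.35 and PIK3CB by 0.32, and GRB2, also an adaptor, rose by 0.17.

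Among other phosphatidylserine receptors and bridging proteins, 3 of 7 human genes were called higher and 1 lower. Over all human genes 18.4% were called in each direction, so nothing is read from this count or from those of the lists that follow. The bridging protein MFGE8 rose by 0.79 (adjusted p = 9.47e-05 by edgeR) and CD300LB by 1.70 (adjusted p = 0.00115 by edgeR). HAVCR2 rose by 0.23 and ITGB5 fell by 0.38. The 2 calls among 4 ligand and carboxylation genes were VKORC1L1, which recycles vitamin K, at 0.39 and LGALS3 at 0.43. Of the engulfment machinery, ABCA7 fell by 0.32 and ELMO1 by 0.29. Of the LXR list 4 of 8 were called lower, with NR1H3 at −0.74 (adjusted p = 0.00269 by edgeR), RXRA at −0.70, MYLIP at −0.55 and RXRB at −0.36. APOE at 1.51 (adjusted p = 0.0189 by edgeR) and PPARD at 0.27 were higher. APOE held only 5, 8 and 11 reads in the DMSO libraries and 20, 13 and 35 in the BIX-01294 libraries. Of its DMSO libraries, only that with 11 reads was above the minimum count of the filter, whereas all BIX-01294 libraries were. No weight is therefore given to APOE having passed the filter. The sizes in the human line and the mouse cells come from separate fits of different species and treatments, and the difference between them was not tested.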

How the data were processed

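RNA-seq of polyA RNA was analysed for sorted splenic NK cells, 3 WT and 3 KO libraries, and for the NK92MI line with BIX-01294 or DMSO, 3 libraries for each treatment. Per the submitters' processing notes and the methods of the study, the authors used fastp 0.23.4, STAR 2.7.11b with GRCm38/mm10 or GRCh38/hg38, and HTSeq 2.0.3, and deposited the resulting counts, not normalized, by gene symbol. The annotation release and strand setting are not given in the sources used here. Gene positions and lengths came from GENCODE M21 and 44 on the same builds.

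Each species was fitted separately with R 4.3.3 and edgeR 4.0.16 (TMM, filterByExpr with a minimum count of 10, quasi-likelihood test, Benjamini-Hochberg adjustment over all genes tested). The standard error is the absolute log2 fold change divided by the square root of F. Alternatives used DESeq2 1.42.0, limma-voom (limma 3.58.1), other filters and scalings, a replicate block and each library left out. DESeq2 at the study's thresholds was added after the data were seen. Log2 CPM for correlations used a prior count of 2. The procedure was tested on simulated data.

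Members, pathway lists and marker lists were chosen with earlier results of these data known. Genes named are all members, per pathway list the called genes of smallest adjusted p (at most 4 in each direction, or the largest change where none was called), the 3 most abundant macrophage markers and the 5 genes most like each member. Exceptions are marked in the text. Some genes that this rule names are not reported here. Same-numbered WT and KO libraries had correlations of deviations of 0.281, 0.352 and −0.188 and were not treated as pairs. The human control columns are named differently from the DMSO samples and their numbers were not taken as DMSO replicate numbers. Protein sequences were not used here.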

Additional observations from a re-analysis of the deposited data

How the results depend on the processing

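With other size factors, library totals or a mean CPM of at least 1 as the filter, mouse counts of calls stayed within 1.5 times those reported (members 3 lower, pathway genes 7 lower and 3 higher, all genes 980 lower and 585 higher, macrophage markers 11 lower, pan-NK markers 7 higher). Without a filter 11 pathway genes were lower. DESeq2 called 19 pathway genes lower and 9 higher, 1989 of all genes lower and 1098 higher, 18 macrophage markers lower and 12 pan-NK markers higher. limma-voom called 1 member and 5 macrophage markers lower. At an adjusted p under 0.01 and an absolute log2 fold change over 0.5, edgeR called 0 members, 0 pathway genes lower and 0 higher, 0 of all genes lower and 0 higher, 0 macrophage markers and 0 pan-NK markers, although 2639 of all genes were lower and 2080 higher at an unadjusted p under 0.05. DESeq2 at these thresholds, chosen after the data were seen, called 3 members and 6 macrophage markers lower. Of all genes it called 1099 lower and 396 higher.

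With the replicate number as a block, edgeR called 3 members, 18 pathway genes lower and 9 higher, 1930 of all genes lower and 1292 higher, 18 macrophage markers and 13 pan-NK markers. The block gave Axl −1.68, Mertk −1.99, Tyro3 0.21, Gas6 −0.88 and Pros1 −0.78. Same-numbered libraries did not all deviate together, so the numbers are not shown to pair them. No paired analysis was possible in human because nothing ties the numbers of the control columns to the numbered DMSO samples.

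Scaling to the pan-NK list called 55 pathway genes lower and 0 higher, 8721 of all genes lower and 35 higher, 18 macrophage markers lower and 0 pan-NK markers higher. The direction turned for Tyro3 (−0.59), Cblb (−0.25), Xkr8 (−0.35), Mylip (−0.21) and Ehmt1 (−0.73). The scaling moved the median of all genes from 0.01 to −0.81.

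With each mouse library left out, members called lower ranged from 0 to 4, pathway genes lower from 0 to 21 and higher from 0 to 9, all genes lower from 0 to 2097 and higher from 0 to 1433, macrophage markers from 0 to 18 and pan-NK markers from 0 to 14. A group left with 1 fewer library has fewer samples to estimate the spread. Otherwise the causes were not tested.

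In human, MERTK was called by 0 of these: no filter, DESeq2, and edgeR or DESeq2 at the thresholds above, and a mean CPM of at least 1 left it out. Each library left out gave 0 to 1 calls. At the study's thresholds edgeR called 4 pathway genes lower and 5 higher and 691 of all genes lower and 794 higher, and DESeq2 4 and 5, and 671 and 813. Depth limits MERTK, at 3 to 22 reads per library.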
